A study of Mus musculus with 63 samples.

Results

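Old wild-type males were represented by 8 of the 63 libraries of this series, 5 labelled as treated with interferon-gamma (IFN-γ, numbers 1 to 5) and 3 labelled as untreated (numbers 1, 2 and 5), chosen by the names of their columns. The libraries hold polyadenylated RNA of peritoneal macrophages of B6 mice, which served as controls for Lrrk2 R1441C knock-in mice and carry no engineered allele per the labels. All donors had received 3% thioglycollate 72 h before the cells were drawn, and the adherent cells were then given 100 U of IFN-γ or water as vehicle for 18 h, per the labels' protocols. The label old stands for 18 to 21 months and the label young for 2 to 3 months. Comparisons were also made with old wild-type females (5 IFN-γ and 5 untreated libraries), young wild-type males (5 and 3) and old R1441C knock-in males (5 and 3), under the same protocol. The labels of the 3 untreated knock-in libraries conflict, since their titles and column names give untreated and their treatment field gives interferon-gamma. The titles were followed. The study asked how the knock-in changes macrophage functions with age and sex, and the 8 libraries give the response to the IFN-γ label in its old male controls.

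IFN-γ is a cytokine of T cells and NK cells. It binds a receptor on macrophages and raises guanylate-binding proteins, immunity-related GTPases, chemokines such as Cxcl9 and the class II transactivator Ciita, which in turn raises antigen presentation by MHC class II. The peritoneal cavity also holds B cells, among them the B-1 cells typical of this site, with T cells and mast cells, and RNA of any such cell that stays in the dish is counted together with that of the macrophages. In bulk RNA, more cells of a type and more RNA per cell cannot be told apart.

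The 8 libraries held 96594112 to 100085436 counts each and were dominated by macrophage transcripts. On the length-scaled FPKM scale the lysozyme gene Lyz2 averaged 18100 ± 1640 in libraries labelled IFN-γ (SD, n = 5) and 18140 ± 2430 in libraries labelled untreated (SD, n = 3), while the B cell gene Cd79a averaged 10.6 ± 6.56 and 1.59 ± 0.494 FPKM. The libraries did not spread evenly. Over 9961 well-counted genes, the SD of the log2 difference beyond counting noise was 0.0966 to 0.156 between the IFN-γ libraries 1, 2 and 3, 0.0912 between IFN-γ libraries 4 and 5, and 0.127 between untreated libraries 1 and 2. Across these sets it was 0.182 to 0.207 for IFN-γ libraries 1 to 3 against 4 and 5, and 0.321 to 0.335 for untreated libraries 1 and 2 against 5. The labels do not say whether libraries came from separate animals or pools, so the p-values measure the spread between these libraries, which may be technical. Results are therefore also given with near-identical libraries summed, which leaves 2 sets in each group.

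Among wild-type males, the response gene Gbp2 differed more by the age label than by the IFN-γ label. Gbp2, a guanylate-binding protein and sensitive IFN-γ target, had 4599, 5127, 4940, 5520 and 5247 CPM (counts scaled to a common library size with TMM factors) in the old IFN-γ libraries 1 to 5, against 6146, 6621 and 5992 CPM in the old untreated libraries 1, 2 and 5. Both groups were far above the young males, in which Gbp2 lay between 235 and 662 CPM in IFN-γ libraries and between 115 and 186 CPM in untreated libraries. Gbp2 in these males thus separated by the age label, and by the treatment label in the direction of IFN-γ only among the young. Old wild-type females had 4372 to 5717 CPM in IFN-γ libraries and 5686 to 7510 CPM in untreated libraries. Old knock-in males had 5315 to 6663 CPM in IFN-γ libraries and 5616 to 7265 CPM in untreated libraries. The reason for the high level in all old groups was not tested. In the usage of 187 immunoglobulin V segments, old IFN-γ libraries 1 to 3 correlated with young IFN-γ libraries 1 to 3 at 0.228 to 0.386. Old IFN-γ libraries 4 and 5 correlated with young IFN-γ libraries 4 and 5 at 0.313 to 0.424. IFN-γ pairs of unlike number sets were lower. Old 1 to 3 against young 4 and 5 gave 0.095 to 0.154, and old 4 and 5 against young 1 to 3 gave 0.026 to 0.209. Old IFN-γ against young untreated libraries gave -0.18 to 0.14. These correlations describe points that share a segment annotation and differ in depth, and no test was made of them. Sex labels held, since Ddx3y of the Y chromosome lay between 33.9 and 59 CPM in the 8 libraries and Xist of the inactive X at 2.38 CPM or less, against at least 120 CPM of Xist in the old females. The low level of Xist was uneven, at 0 to 2.38 CPM in IFN-γ libraries (median 0.0303 CPM) and 0.22 to 1.6 CPM in untreated libraries, so that the groups overlapped. Its source was not tested. Lrrk2 averaged 169 ± 17.8 CPM in IFN-γ libraries and 157 ± 38.5 CPM in untreated libraries (log2 change 0.11, SE 0.27, adjusted p = 0.877 in the edgeR fit). All directions below are therefore those between labels.

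**Figure D1:**
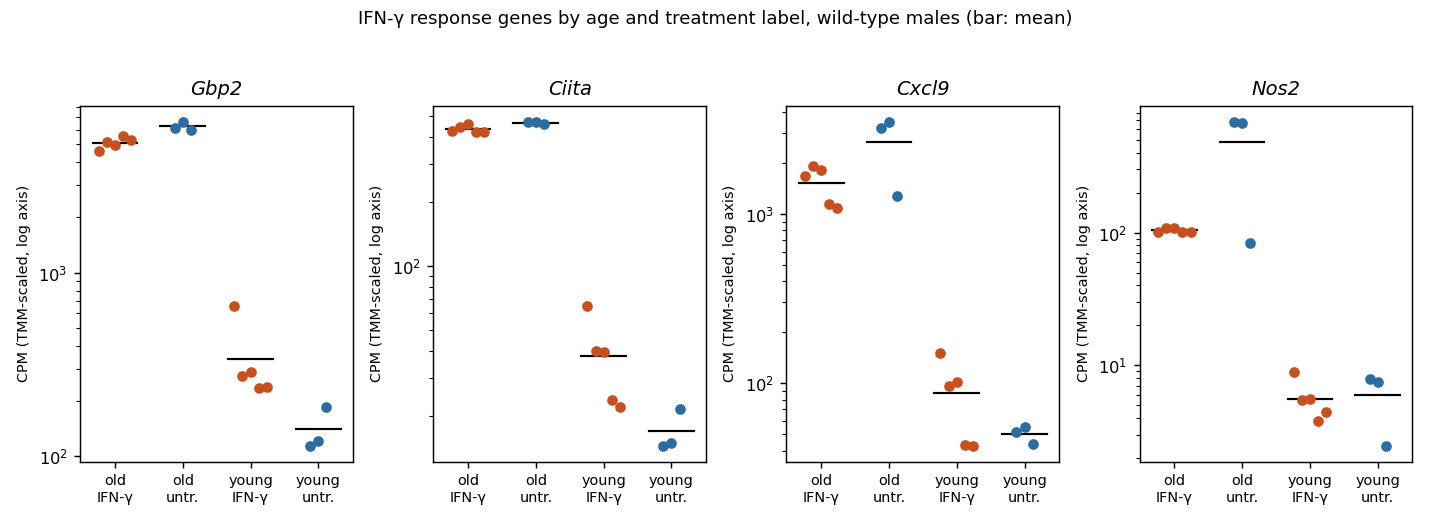
CPM (log axis) of 4 IFN-γ response genes in the wild-type male libraries, grouped by age and treatment label, with each point a library and the bar the group mean. Gbp2 and Ciita lie at similar levels in both old groups, and all 4 genes lie lower in both young groups.

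Libraries labelled IFN-γ held more of 12 of 24 B cell and 13 of 24 T cell transcripts, and less of a set of macrophage genes that includes Mfge8, Irf8 and Cxcl16. Of 33 IFN-γ response genes, 1 fell and none rose. Of 22147 genes tested with edgeR's quasi-likelihood test, 543 (2.45%) changed at an adjusted p under 0.05, of which 202 rose (0.912% of those tested) and 341 fell (1.54%). Most changes were small. Of the genes that rose, 101 changed by less than 1 on the log2 scale, and of the genes that fell, 299 did. Among the 81 genes that rose by at least 2, 60 were B cell identity genes or followed the B cell content of the libraries within groups. The split between directions depended on scaling, with 197 higher and 167 lower under DESeq2 size factors and 307 and 235 under upper-quartile factors. With replicate numbers as a block, 70 genes rose (0.316%) and 45 fell (0.203%). In a fit of the 8 libraries alone, 7.91% of 17780 genes rose and 7.69% fell. With near-identical libraries summed, no gene was called by edgeR (smallest adjusted p = 0.654). All 543 kept their sign and 475 of them had an unadjusted p under 0.05, among 1199 genes at that level. The sums reuse the libraries that gave the 543 calls, so the kept signs are no separate support. Leaving out a single library left no call without untreated library 1, 1 call (Dnah8, named after its value was seen) without untreated library 2, 21 higher and 7 lower without IFN-γ library 1, 23 and 7 without IFN-γ library 3, and 92 and 155 without IFN-γ library 2. Without IFN-γ library 5 the calls were 135 higher and 158 lower. Without untreated library 5 they were 253 higher and 449 lower.

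Of 24 B cell identity genes, 12 rose and none fell, 23 had no overlap between the groups, and the median log2 change was 2.52 against -0.0137 over all genes tested. Over all genes, 0.912% rose and 8.33% lay higher without overlap. Cd79a, a signalling chain of the B cell receptor, had 18.9, 24.9, 23.2, 4.92 and 5.48 CPM in IFN-γ libraries 1 to 5, against 3.05, 2.37 and 1.64 CPM in untreated libraries 1, 2 and 5. Every IFN-γ library was above every untreated one, and libraries 1 to 3 were well above 4 and 5. The log2 change of Cd79a was 2.72 (SE 0.72, adjusted p = 0.0366, edgeR, and 0.0583 with the replicate block). Ighm, the heavy chain of IgM, showed the groups apart with a smaller step between the IFN-γ sets: 94.9, 126, 121, 89.5 and 91.2 CPM in IFN-γ libraries, against 15.2, 14.8 and 17.4 CPM in untreated libraries. Its log2 change was 2.73 (SE 0.76, adjusted p = 0.0445, 0.0848 with the block). Igkc, the kappa light chain constant region, did not follow the step at all, with 21.1, 32.4, 28.2, 32.9 and 32 CPM in IFN-γ libraries against 2.8, 3.58 and 4.39 CPM in untreated libraries (log2 change 3.03, SE 0.73, adjusted p = 0.0285, 0.056 with the block).

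The other B cell genes that passed the test were Cd79b (the partner of Cd79a), the transcription factors Pax5 and Ebf1, the complement receptor Cr2, the low-affinity IgE receptor Fcer2a, the IgM Fc receptor Fcmr, the BAFF receptor Tnfrsf13c, Ly6d and Ighd, with log2 changes between 2.48 and 3.59. Ly6d, a surface marker of early and mature B cells, had 5.78, 7.16, 7.03, 3.75 and 3.96 CPM in IFN-γ libraries, against 0.851, 0.793 and 0.483 CPM in untreated libraries. It kept its call with the block (adjusted p = 0.024), as did Pax5, Ebf1, Fcer2a, Fcmr and Ighd. Ms4a1 (CD20), a membrane protein of mature B cells, had a log2 change of 2.38 and missed the threshold (adjusted p = 0.0761, edgeR), at 10.65, 14.15, 13.2, 3.8 and 3.24 CPM in IFN-γ libraries against 1.92, 2.5 and 0.779 CPM in untreated libraries. The summed level of the list was 282 to 427 CPM in IFN-γ libraries against 137 to 163 CPM in untreated libraries. A large share of that sum is Cd22, the member with no call and overlapping groups, an inhibitory lectin that lay at 89.6 to 118 CPM in IFN-γ libraries against 94.8 to 125 CPM in untreated libraries.

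**Figure D2:**
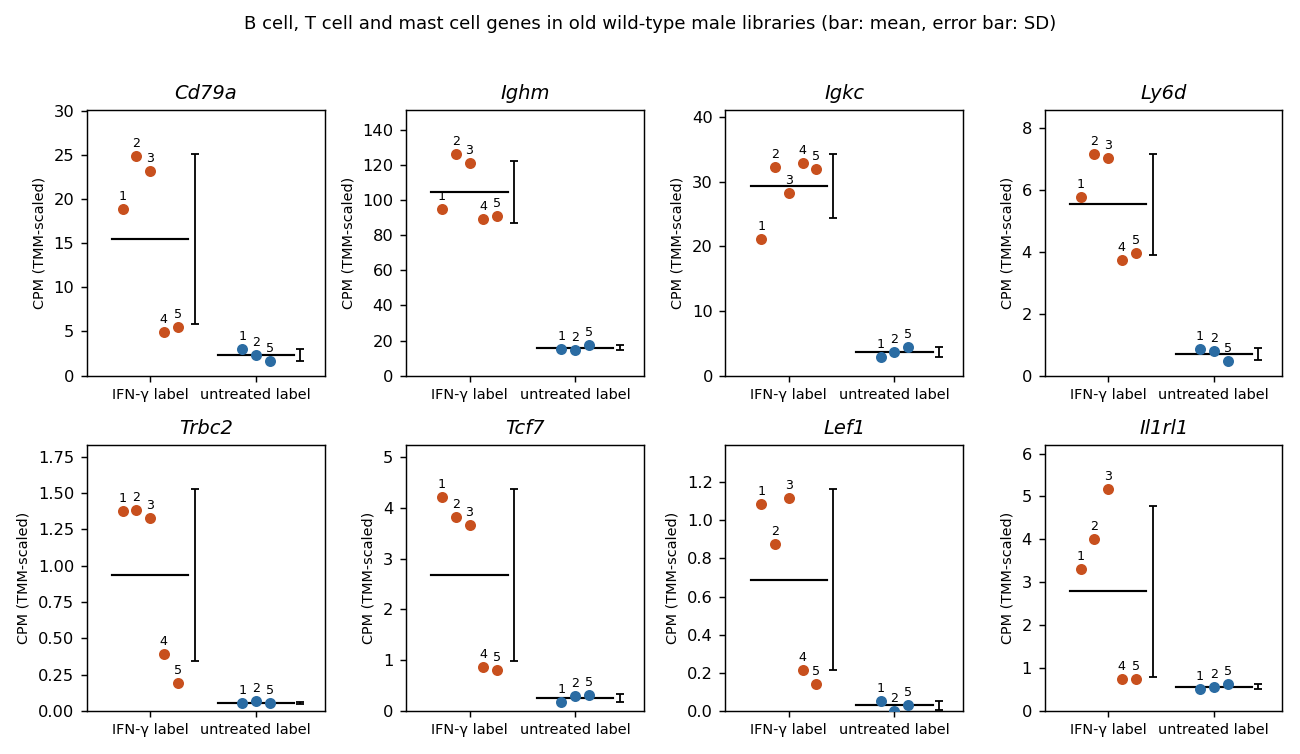
TMM-scaled CPM of 8 genes of B cells, T cells and mast cells in each library, numbered by replicate, with the mean (bar) and SD (error bar) of libraries labelled IFN-γ (orange, n = 5) and untreated (blue, n = 3). Libraries 1 to 3 lie above 4 and 5 for Cd79a, Tcf7 and Il1rl1 but not for Igkc.

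Rearranged immunoglobulin segments moved with the constant regions. All 218 V segment genes together made up 72, 96.5, 90, 93.3 and 92.5 CPM of the total count (without TMM factors) in IFN-γ libraries 1 to 5, against 9.46, 8.84 and 12.3 in untreated libraries 1, 2 and 5. IFN-γ libraries 4 and 5 thus held as much V segment RNA as libraries 1 to 3, although their Cd79a level was lower. A pair of segments named after their values were seen, Ighv11-2 and Igkv14-126, is known in mice for pairing in B-1 cells that bind phosphatidylcholine. Ighv11-2 took 75.3% and 74.3% of heavy V counts in IFN-γ libraries 4 and 5 and 42.5% to 43.6% in libraries 1 to 3, against 29.8% to 50.1% in untreated libraries. Igkv14-126 took 65.2% and 67.8% of kappa V counts in IFN-γ libraries 4 and 5 and 29.6% to 31.8% in libraries 1 to 3, against 14.1% to 47.9% in untreated libraries. Of 4 other genes linked to B-1 cells, none passed the test in either direction, and 2 (Cd5 and Ctla4) lay higher without overlap (8.33% of all genes). Bhlhe41, a transcription factor of B-1 cells that macrophages also express, had 57.8 to 67.6 CPM in IFN-γ libraries against 65.7 to 110 CPM in untreated libraries.

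Plasma cell genes had a median log2 change of 0.70, below that of the B cell genes, and 8 of the 12 were positive. Without overlap, 4 lay higher and 1 lower, against 8.33% and 10.5% of all genes. By the test, 1 rose and 1 fell, against 0.912% and 1.54% of all genes. Of 12 members, Mzb1, a chaperone of antibody secretion, rose (log2 change 3.35, SE 0.93, adjusted p = 0.043, edgeR, 0.0694 with the block), at a low level of 0.737 to 1.17 CPM in IFN-γ libraries against 0.082 to 0.0965 CPM in untreated libraries. Sdc1, the syndecan that marks plasma cells and is also made by macrophages, fell. It had 75.1, 78.6, 76, 82.9 and 84.3 CPM in IFN-γ libraries, against 193, 199 and 96.6 CPM in untreated libraries (log2 change -1.04, SE 0.28, adjusted p = 0.0382, 0.0756 with the block). The heavy chains Ighg1 and Igha stayed at 0.241 CPM or less in all 8 libraries.

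T cell genes rose with the B cell genes at lower levels. Of 24 members 13 rose (0.912% of all genes) and none fell, with a median log2 change of 2.7. Without overlap, 15 lay higher (8.33% of all genes). Trbc2, a constant region of the T cell receptor beta chain, had 1.38, 1.38, 1.33, 0.389 and 0.193 CPM in IFN-γ libraries 1 to 5, against 0.0513, 0.0643 and 0.0549 CPM in untreated libraries 1, 2 and 5. Its log2 change was 4.01 (SE 0.79, adjusted p = 0.0142, edgeR, 0.0226 with the block). Tcf7, a transcription factor of naive and memory T cells, had 4.22, 3.82, 3.65, 0.871 and 0.813 CPM in IFN-γ libraries, against 0.164, 0.289 and 0.318 CPM in untreated libraries (log2 change 3.38, SE 0.67, adjusted p = 0.0142, 0.0253 with the block). Both genes showed the step between libraries 1 to 3 and 4 to 5. Co-receptors of both main T cell classes were among the calls, since Cd4 (log2 change 2.06), Cd8a (3.25) and Cd8b1 (4.02) rose, as did Cd3d, Cd3e, Trac, Trbc1, Lef1, Bcl11b and Cd27. With the replicate block 6 of the 13 calls were left, and Cd4 and Cd8a were lost (adjusted p = 0.0673 and 0.0696, edgeR), as were Cd3d, Trac, Trbc1, Bcl11b and Cd27. The members Il7r and Cd247 did not follow, and the cells that they came from were not tested. Il7r, the interleukin-7 receptor, had 175 to 272 CPM in IFN-γ libraries against 188 to 273 CPM in untreated libraries. Cd247 had 0.508 to 1.51 CPM in IFN-γ libraries against 4.06, 4.32 and 0.461 CPM in untreated libraries.

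Of 13 NK cell and cytotoxic genes none passed the test, at a median log2 change of 0.25. Their defining receptor Ncr1 stayed at 0.256 CPM or less in all 8 libraries. Of 13 mast cell and basophil genes, all had a positive log2 change with a median of 2.05, but only Il1rl1, the interleukin-33 receptor, passed the test. Il1rl1 had 3.3, 4.01, 5.16, 0.737 and 0.732 CPM in IFN-γ libraries, against 0.502, 0.557 and 0.615 CPM in untreated libraries (log2 change 2.32, SE 0.60, adjusted p = 0.0358, edgeR, 0.116 with the block). The mast cell protease gene Cpa3 had 6.17, 10.2, 8.84, 0.952 and 1.04 CPM in IFN-γ libraries, against 0.912, 1.32 and 1.72 CPM in untreated libraries. The list summed to 5.73 to 47.1 CPM in IFN-γ libraries against 5.54 to 8.35 CPM in untreated libraries. Mast cell transcripts were thus high in IFN-γ libraries 1 to 3 alone, and the median of the list was -0.31 without those 3 libraries. Red cell genes went the other way inside the group, with their summed level at 57.2 and 61.5 CPM in IFN-γ libraries 4 and 5 and 5.86 to 7.47 CPM in libraries 1 to 3, against 7.37 to 18.6 CPM in untreated libraries. No member of the eosinophil, neutrophil, dendritic cell, red cell, or mesothelial and fibroblast lists passed the test. Mesothelial and fibroblast genes summed to 137 to 236 CPM in IFN-γ libraries against 127 to 332 CPM in untreated libraries.

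To separate genes that follow lymphocyte content from those that do not, the mean log2 CPM over the B cell list was used as a score, which was 2.68, 2.90, 2.90, 1.32 and 1.26 in IFN-γ libraries 1 to 5, against 0.15, 0.15 and -0.45 in untreated libraries 1, 2 and 5. Across all 63 libraries, the slope of each gene on this score inside the groups was tested in the same model. Of 22123 genes outside the list, 17.2% had a positive and 20.6% a negative slope. Of the 202 genes that rose, 12 were in the list, 64 had a positive slope, 20 a negative slope and 106 none that passed the test. Of the 341 genes that fell, 46 had a positive slope, 16 a negative slope and 279 none. The median log2 change of the genes that rose was 2.54 where the slope was positive and 0.55 where it was not called. Genes outside the fixed lists that rose with a positive slope included Fam169b (log2 change 3.32, adjusted p = 0.0467, edgeR) and the phosphatase subunit Ppp1r16b (log2 change 3.02, adjusted p = 0.0401), whose changes were -0.12 and -0.07 with the score as a covariate. With the score as a covariate, 131 of the 202 and 276 of the 341 kept a call, with 9 and 0 changes of sign among all called, but 11.9% of all genes then rose and 11% fell, so that this fit calls far more genes than the fit without it. The score differs between the groups without overlap, and what it takes out of the label effect cannot be told apart from that effect within these 8 libraries.

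**Figure D3:**
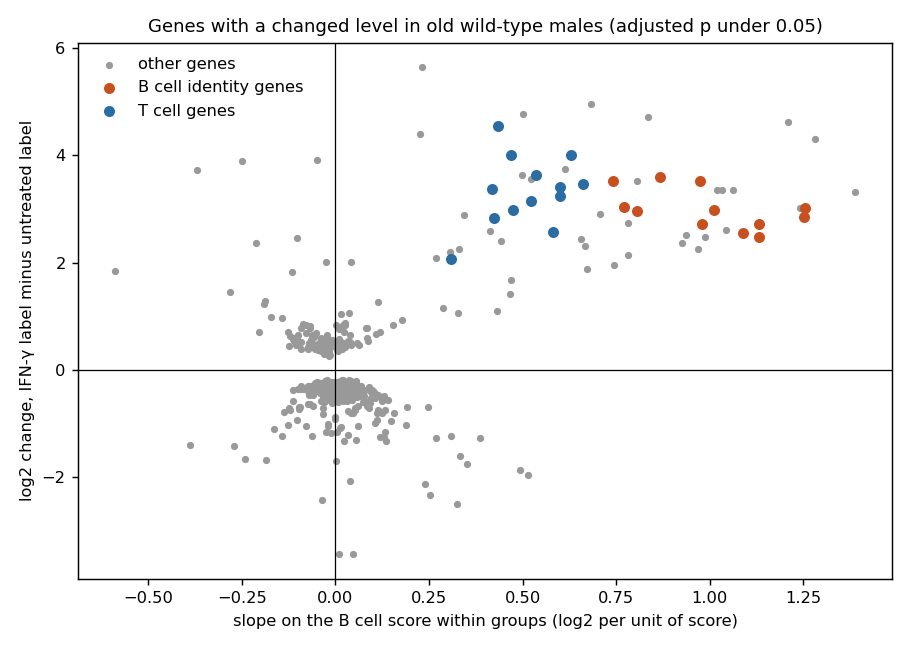
Log2 change by label (vertical axis) against the slope on the B cell score within groups (horizontal axis, log2 per unit of score) for 516 called genes with a symbol; 12 with a change beyond 6 are not drawn. B cell (orange) and T cell (blue) genes lie at the upper right, and most genes that fell lie near a slope of 0.

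Among genes that fell, Mfge8 encodes a secreted bridge between phosphatidylserine on dying cells and integrins of the phagocyte. It had 97, 97.2, 92.6, 190 and 186 CPM in IFN-γ libraries 1 to 5, against 295, 314 and 447 CPM in untreated libraries 1, 2 and 5. The groups did not overlap, and within the IFN-γ group libraries 4 and 5 lay between libraries 1 to 3 and the untreated libraries. The log2 change was -1.41 (SE 0.38, adjusted p = 0.0397, edgeR, 0.103 with the block), and the slope on the B cell score was negative (-0.39, adjusted p = 0.00242), so that Mfge8 was lower in libraries with more B cell RNA also inside groups. With the score as a covariate the change was -0.58 (adjusted p = 0.328). The part of RNA from other cells in the fall of Mfge8 was not tested further. Mfge8 was the only one of 17 efferocytosis genes to pass the test. Among other members, the receptor kinase Axl lay at 288 to 298 CPM in IFN-γ libraries against 356 to 464 CPM in untreated libraries. The lipid scavenger receptor Cd36 lay at 930 to 1107 CPM in IFN-γ libraries against 638 to 822 CPM in untreated libraries, and neither was called (adjusted p = 0.179 and 0.0992, edgeR).

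Genes that fell without a slope on the B cell score included Gprc5b, an orphan G protein-coupled receptor, the guanine nucleotide exchange factor Rasgef1a, Tmem202, the fatty acid-binding protein Fabp3, the growth factor Hbegf, Iqck and the zinc transporter Slc39a2. Gprc5b had 15.9, 16.2, 14.5, 23.1 and 24.6 CPM in IFN-γ libraries, against 54.4, 59.3 and 28.5 CPM in untreated libraries (log2 change -1.33, SE 0.30, adjusted p = 0.0251, edgeR, 0.0771 with the block). Fabp3 had 16.1, 18.5, 14.2, 19.8 and 20.7 CPM in IFN-γ libraries, against 45.4, 50.1 and 24.4 CPM in untreated libraries (log2 change -1.16, SE 0.28, adjusted p = 0.0283). In both, untreated library 5 lay just above the IFN-γ libraries and far below untreated libraries 1 and 2. The same layout held for Hbegf, whose groups overlapped, with 1.57 to 2.87 CPM in IFN-γ libraries against 5.60, 6.70 and 2.39 CPM in untreated libraries, and for Sdc1 above. Cdk18, a cyclin-dependent kinase relative, did not depend on that split, with 13.3 to 14.5 CPM in IFN-γ libraries against 28.5, 29.7 and 26 CPM in untreated libraries (log2 change -1.02, SE 0.24, adjusted p = 0.0255, 0.0901 with the block). Of the 341 genes that fell, 318 had no overlap between groups, while 10.5% of all genes lay lower without overlap. The 341 were called in these same libraries, so their lack of overlap follows largely from that choice. In 104 of the 341, untreated library 5 was nearer to the mean of the IFN-γ libraries than to that of untreated libraries 1 and 2.

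Several of the larger falls rested on untreated libraries 1 and 2. Lrrc32, which tethers latent TGF-beta to the cell surface, had 1.503 to 1.82 CPM in IFN-γ libraries against 8.64, 8.60 and 1.504 CPM in untreated libraries (log2 change -1.87, SE 0.53, adjusted p = 0.0459, edgeR). Without untreated libraries 1 and 2 the log2 changes of Lrrc32, Plekha4 and Ccdc39 were 0.22, 0.03 and 0.33, so that their direction came from those libraries. Plxna2, a semaphorin receptor subunit, kept its groups apart at 0.747 to 1.22 CPM in IFN-γ libraries against 3.18, 2.84 and 2.49 CPM in untreated libraries.

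**Figure D4:**
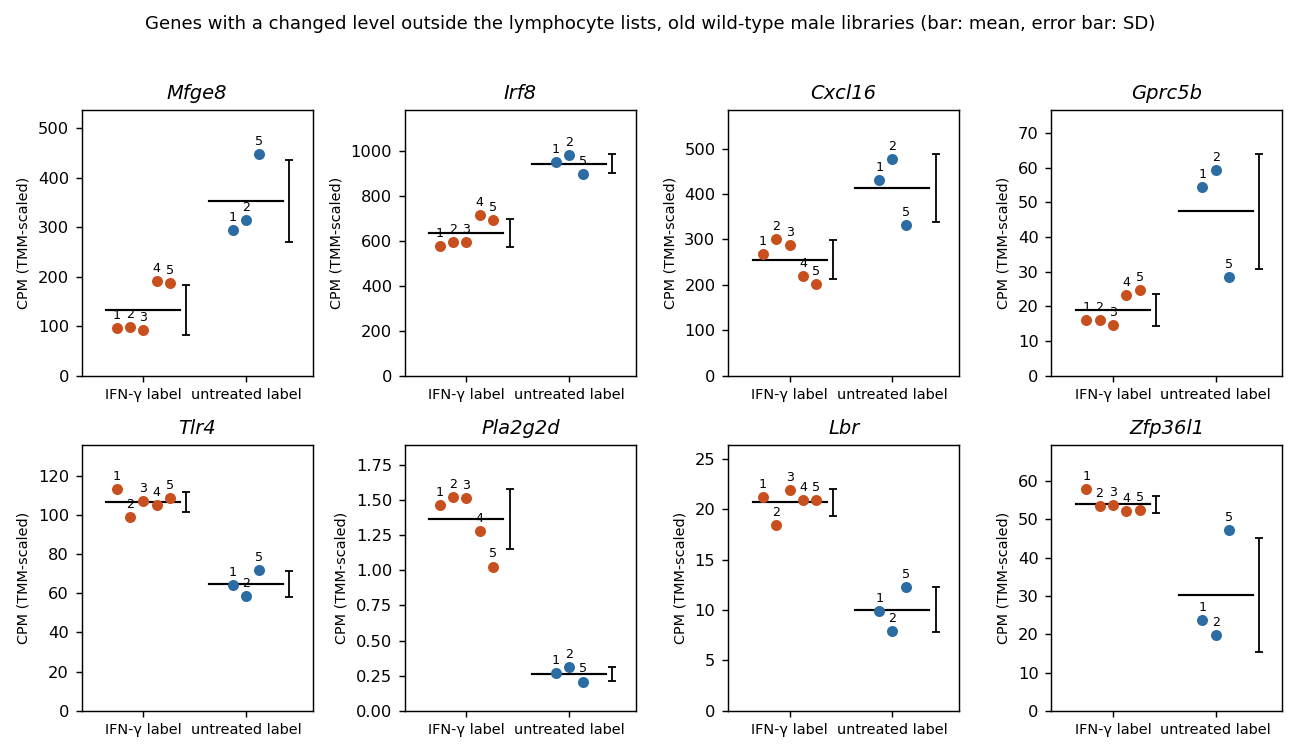
TMM-scaled CPM of 8 genes outside the lymphocyte lists in each library, numbered by replicate, with the mean (bar) and SD (error bar) of libraries labelled IFN-γ (orange, n = 5) and untreated (blue, n = 3). Irf8, Tlr4, Pla2g2d and Lbr keep the groups clear of each other, while untreated library 5 lies near the IFN-γ libraries for Gprc5b and Zfp36l1.

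Genes that rose without a slope on the B cell score included Acsbg1, an acyl-CoA synthetase, the secreted phospholipase Pla2g2d, Arap2, Fam120c and the lamin B receptor Lbr. Pla2g2d, known in mice as a phospholipase of lymphoid-organ myeloid cells, had 1.47, 1.52, 1.52, 1.28 and 1.03 CPM in IFN-γ libraries, against 0.267, 0.311 and 0.209 CPM in untreated libraries. Its log2 change was 2.37 (SE 0.51, adjusted p = 0.0201, edgeR, 0.0771 with the block). Lbr had 21.2, 18.5, 21.9, 20.9 and 20.9 CPM in IFN-γ libraries, against 9.95, 7.92 and 12.3 CPM in untreated libraries (log2 change 1.04, SE 0.22, adjusted p = 0.0185, 0.022 with the block). Neither showed a step between IFN-γ libraries 1 to 3 and 4 to 5 of the size seen for Cd79a and Tcf7. Zfp36l1, which promotes decay of AU-rich mRNAs, had 57.9, 53.6, 53.8, 52.2 and 52.5 CPM in IFN-γ libraries, against 23.7, 19.7 and 47.3 CPM in untreated libraries (log2 change 0.84, SE 0.24, adjusted p = 0.0449, 0.0534 with the block). For Zfp36l1, untreated library 5 lay much closer to the IFN-γ libraries than untreated libraries 1 and 2 did.

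Among Toll-like receptors and their adaptors, 2 of 15 list members rose and none fell (0.912% and 1.54% of all genes tested). Without overlap, 4 lay higher and 2 lower, against 8.33% and 10.5% of all genes. Tlr4, the receptor for bacterial lipopolysaccharide, had 113, 98.8, 107, 105 and 108 CPM in IFN-γ libraries, against 64.4, 58.5 and 71.6 CPM in untreated libraries (log2 change 0.72, SE 0.16, adjusted p = 0.0251, edgeR, 0.0392 with the block). Tlr3, which senses double-stranded RNA, had 17.2, 14.5, 15.9, 14.3 and 14.4 CPM in IFN-γ libraries, against 11.1, 9.57 and 10.6 CPM in untreated libraries (log2 change 0.55, SE 0.15, adjusted p = 0.0378, 0.0511 with the block). Both kept the groups clearly apart. Tlr8 lay higher without overlap but missed the threshold (log2 change 1.06, SE 0.35, adjusted p = 0.0719), and the adaptor gene Myd88 had 79.6 to 92 CPM in IFN-γ libraries against 99 to 106 CPM in untreated libraries, also not called. The complement regulator Cd55 rose (log2 change 1.95, SE 0.53, adjusted p = 0.0389, 0.114 with the block) but had a positive slope on the B cell score (0.74).

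The IFN-γ response list, 33 genes, gave no member that rose and 1 that fell, at a median log2 change of -0.12, and 4 members lay higher and 8 lower without overlap. Over all genes, 0.912% rose and 1.54% fell, and 8.33% lay higher and 10.5% lower without overlap. Irf8, a transcription factor of the monocyte and macrophage lineage that IFN-γ is known to raise, was the member that fell. It had 579, 596, 596, 714 and 691 CPM in IFN-γ libraries 1 to 5, against 950, 982 and 898 CPM in untreated libraries 1, 2 and 5. The log2 change was -0.57 (SE 0.13, adjusted p = 0.0251, edgeR, 0.0281 with the block), and with the B cell score as a covariate it was -0.51 (adjusted p = 0.0129). Cxcl9, a chemokine for activated T cells, had 1667, 1934, 1828, 1144 and 1084 CPM in IFN-γ libraries, against 3247, 3503 and 1284 CPM in untreated libraries (log2 change -0.81, SE 0.78, adjusted p = 0.602). Nos2, inducible nitric oxide synthase, had 100.4, 108, 109, 101 and 100.5 CPM in IFN-γ libraries, against 680, 673 and 83.9 CPM in untreated libraries (log2 change -2.21, SE 0.97, adjusted p = 0.173). For both, untreated library 5 sat with the IFN-γ libraries. Irf1, an early target, had 861 to 956 CPM in IFN-γ libraries against 996 to 1188 CPM in untreated libraries, and was not called (adjusted p = 0.615, edgeR).

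The stretches before the start sites of Gbp2, Irf1 and Irf8 are shown because IFN-γ is known to act on these genes through such DNA, while none of the 3 was called higher under the IFN-γ label. Capitals mark matches to the gamma-activated site (GAS), TTCNNNGAA, or to an interferon-stimulated response element (ISRE) core, GAAA followed by any 2 bases and GAAA, on either strand, in the 250 bases before the start (RefSeq, GRCm38.p6, plus strand, chr3:142620413-142620662 for Gbp2, chr11:53769764-53770013 for Irf1 and chr8:120736108-120736357 for Irf8).
Gbp2: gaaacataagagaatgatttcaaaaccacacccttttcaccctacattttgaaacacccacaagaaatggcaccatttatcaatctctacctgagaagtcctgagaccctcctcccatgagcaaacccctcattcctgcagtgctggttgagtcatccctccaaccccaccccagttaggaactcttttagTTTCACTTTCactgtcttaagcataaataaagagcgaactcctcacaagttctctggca
Irf1: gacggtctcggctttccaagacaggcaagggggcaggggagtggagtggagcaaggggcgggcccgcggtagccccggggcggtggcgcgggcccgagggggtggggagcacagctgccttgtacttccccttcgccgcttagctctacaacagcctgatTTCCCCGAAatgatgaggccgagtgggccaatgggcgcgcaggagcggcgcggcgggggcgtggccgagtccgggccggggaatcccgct
Irf8: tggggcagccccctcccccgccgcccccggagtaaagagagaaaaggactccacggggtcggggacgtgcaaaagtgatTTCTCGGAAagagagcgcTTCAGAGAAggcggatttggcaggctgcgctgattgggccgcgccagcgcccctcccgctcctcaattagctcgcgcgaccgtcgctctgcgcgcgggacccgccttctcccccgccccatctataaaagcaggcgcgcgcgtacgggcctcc
The Gbp2 window holds 1 ISRE-type match, the Irf1 window 1 GAS match and the Irf8 window 2 GAS matches. Of 32851 windows of this length in the table, 7.02% hold a GAS match and 2.98% an ISRE-type match. Of the 20 list genes with a window, 9 hold a GAS match and 12 an ISRE-type match. For Irf1 and Irf8, which have 2 windows each in the table, the one with more matches is shown. No match overlaps another in these 3 windows, and a match is a description of sequence only.

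Antigen presentation genes gave no call by label. Of 15 MHC class II genes none passed the test (median log2 change -0.05), and their summed level was 22570 to 24810 CPM in IFN-γ libraries against 20370 to 26270 CPM in untreated libraries. The pair with the largest changes was H2-Eb2 and H2-Ob, which B cells express, with H2-Eb2 at 4.32, 5.02, 4.63, 0.850 and 0.651 CPM in IFN-γ libraries against 0.666, 0.943 and 0.395 CPM in untreated libraries. H2-Eb2 followed the step of the B cell genes and overlapped between groups. Of 23 MHC class I and immunoproteasome genes none passed the test, and 20 had a negative log2 change. Without overlap, 2 of them lay higher and 4 lower (8.33% and 10.5% of all genes). Of 30 type I interferon-stimulated genes none passed the test either. Of these 30, 25 had a positive slope on the B cell score, against 17.2% of genes outside the B cell list. With the score as a covariate 19 of the 30 were called lower and none higher (median log2 change -0.57), against 11% and 11.9% of all genes. Ciita had 422 to 458 CPM in IFN-γ libraries against 460 to 471 CPM in untreated libraries, lower without overlap but not called.

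Among 24 chemokine genes 2 fell and none rose (1.54% and 0.912% of all genes tested). Cxcl16, a membrane-bound chemokine that also takes up oxidised lipid, had 267, 301, 288, 219 and 201.3 CPM in IFN-γ libraries, against 432, 477 and 331 CPM in untreated libraries (log2 change -0.70, SE 0.20, adjusted p = 0.0466, edgeR, 0.0232 with the block). Cxcl5, a neutrophil-attracting chemokine, fell at a level under 1 CPM (log2 change -3.44, SE 0.68, adjusted p = 0.0142, 0.0815 with the block), with 0 to 0.0717 CPM in IFN-γ libraries against 0.666, 0.675 and 0.0768 CPM in untreated libraries. The summed level of the chemokine list was 2729 to 3528 CPM in IFN-γ libraries against 5049, 5462 and 2731 CPM in untreated libraries, so that untreated library 5 lay at the level of the IFN-γ libraries. Of 18 cytokine genes tested, Tgfb1 fell by 0.36 on the log2 scale (SE 0.10, adjusted p = 0.0487, 0.105 with the block), and of 17 costimulatory genes Lgals9 (galectin-9) fell by 0.47 (SE 0.13, adjusted p = 0.04, 0.104 with the block).

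Lysosomal enzyme and membrane genes gave 3 members of 43 that fell and none that rose (1.54% and 0.912% of all genes tested). Their median log2 change was -0.18, and 15 lay lower without overlap, as did 10.5% of all genes. These genes also moved with lymphocyte content, since 35 of the 43 had a negative slope on the B cell score, against 20.6% of genes outside the B cell list. With the score as a covariate 14 were called higher and 4 lower (11.9% and 11% of all genes). The median was then 0.19, so that the direction of the list turned. Gaa, acid alpha-glucosidase, had 177, 176, 175, 210 and 211 CPM in IFN-γ libraries, against 246, 234 and 246 CPM in untreated libraries (log2 change -0.35, SE 0.09, adjusted p = 0.0285, edgeR, 0.0445 with the block). Acp5, tartrate-resistant acid phosphatase, had 103 to 119 CPM in IFN-γ libraries against 149 to 202 CPM in untreated libraries (log2 change -0.71, adjusted p = 0.0463, 0.114 with the block). The sialidase Neu1 had 133 to 145 CPM in IFN-γ libraries against 160 to 170 CPM in untreated libraries (log2 change -0.26, adjusted p = 0.0467, 0.0927 with the block). Of 17 subunits of the V-ATPase, the proton pump of lysosomes, 16 had a negative log2 change, 11 lay lower without overlap and 1, Atp6v1e1, passed the test (log2 change -0.39, SE 0.10, adjusted p = 0.0346, 0.0808 with the block). Of these subunits 12 had a negative slope on the score, and with it as a covariate 2 were called higher and 1 lower. Ctsk, cathepsin K, had 133 to 155 CPM in IFN-γ libraries against 313, 322 and 193 CPM in untreated libraries and was not called (log2 change -0.96, SE 0.37, adjusted p = 0.116). Of 20 glycolysis and hypoxia genes 12 lay lower without overlap (10.5% of all genes), but none passed the test, with Pfkp nearest (210.5 to 239 CPM in IFN-γ libraries against 256 to 348 CPM in untreated libraries, log2 change -0.47, adjusted p = 0.0504).

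**Figure D5:**
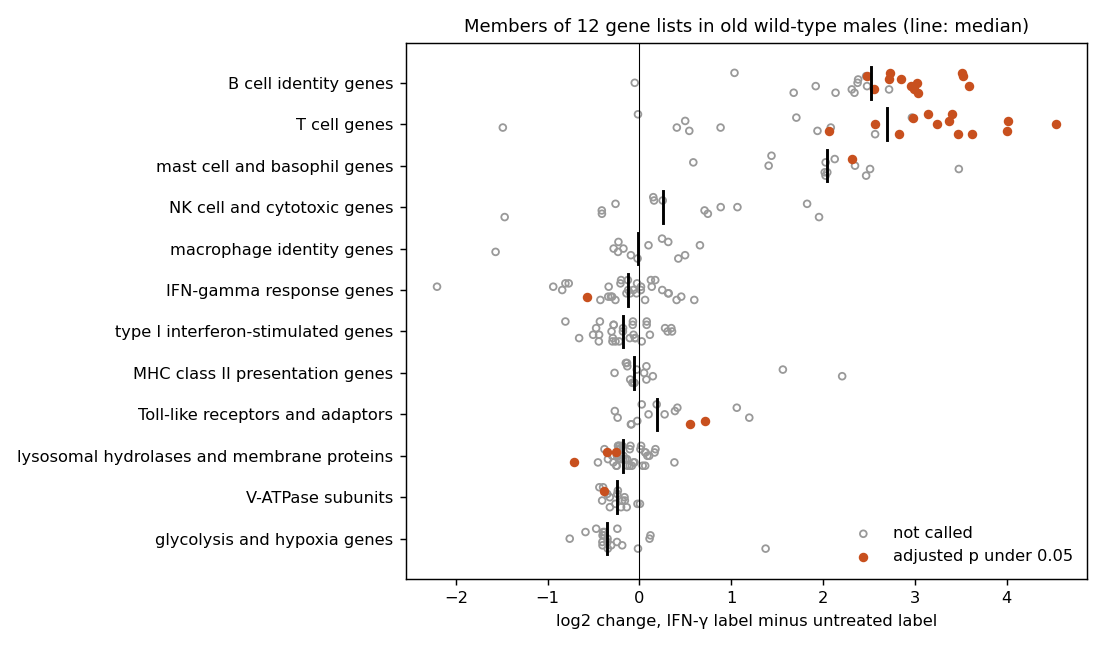
Log2 change by label of each tested member of 12 gene lists (points, orange where the adjusted p was under 0.05) with the median of each list (line). Medians of B cell, T cell and mast cell genes lie at 2 or above, and those of the macrophage, interferon and lysosome lists lie within 0.35 of 0.

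Macrophage identity did not change by label as a list: of 13 genes none passed the test, at a median log2 change of -0.02. Adgre1 (F4/80) had 1045, 1049, 1052, 835 and 808 CPM in IFN-γ libraries, against 564, 558 and 1019 CPM in untreated libraries. Marco, a scavenger receptor for bacteria, had 59.3, 70.5, 69.1, 30.95 and 30.95 CPM in IFN-γ libraries, against 205, 214.5 and 43.9 CPM in untreated libraries. Timd4, a phosphatidylserine receptor from the list of large resident peritoneal macrophages, had 13.1, 16.1, 16.7, 8.63 and 7.99 CPM in IFN-γ libraries, against 49.1, 52.5 and 5.99 CPM in untreated libraries. In these 3 genes untreated library 5 differed from untreated libraries 1 and 2 by more than the IFN-γ libraries differed among themselves, and none was called (adjusted p = 0.186, 0.138 and 0.277, edgeR). Single genes of stress and lipid lists fell, namely Ppp1r15a, a phosphatase subunit of the integrated stress response (log2 change -0.75, SE 0.17, adjusted p = 0.0242, 0.012 with the block), Mvd of sterol synthesis (-0.61, SE 0.15, adjusted p = 0.0292, 0.0641 with the block) and the immediate early gene Egr2 (-0.88, SE 0.25, adjusted p = 0.0453, 0.0706 with the block). None of 32 proliferation genes, 55 nuclear or 13 mitochondrially encoded respiratory chain genes, 14 NRF2 targets or 15 circadian genes passed the test.

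Among the 21388 tested genes with a symbol, the 3 largest fitted changes were of genes found almost wholly in IFN-γ libraries 4 and 5. Ptgds, prostaglandin D synthase, had 12.1 and 10.98 CPM in libraries 4 and 5 and 0.0402 CPM or less in libraries 1 to 3, against no count in any untreated library, which makes it at least 455-fold higher by summed counts against a floor of 3 counts over the untreated group. Akr1cl, an aldo-keto reductase, was likewise at least 211-fold higher, and Agt, angiotensinogen, had 1949 counts in IFN-γ libraries against 1 count in untreated libraries, a ratio of 1173 with a 95% counting interval of 210 to 46370. These intervals and floors cover counting error only. Acsbg1 had 0.312, 0.383, 0.389, 3.78 and 3.24 CPM in IFN-γ libraries, against 0.123, 0.0536 and 0.187 CPM in untreated libraries (log2 change 3.73, SE 0.80, adjusted p = 0.0195, edgeR). The means of these genes over the IFN-γ group describe libraries 4 and 5.

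The same label effect was measured in the other groups of old and of male mice, none of which share libraries with the 8. In old wild-type females 8.69% of genes rose and 10.5% fell, in young wild-type males 0.235% and 0.0271%, and in old knock-in males 0.0632% and 0.0406%. Every value for knock-in males assumes that the titles of their untreated libraries are right. The median log2 change of the 24 B cell genes was 2.52 in old wild-type males (12 called higher), 4.55 in old wild-type females (23), 2.95 in young wild-type males (6) and 1.92 in old knock-in males (1). For the 24 T cell genes it was 2.7 (13 called higher), 2.62 (20), 3.36 (11) and 1.82 (0) in the same order. The log2 change of Mfge8 was -1.41, -1.98, -1.32 and -0.55 in that order, and that of Irf8 -0.57, -0.61, -0.08 and -0.06. For Tlr4 it was 0.72, 0.15, 0.12 and -0.07. For Cd79a, Mfge8, Irf8 and Tlr4, no difference between old wild-type males and any of the other groups passed the test (smallest adjusted p = 0.139, edgeR), which does not show that the effects are equal.

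The test of the difference itself called 21 genes against old wild-type females, 6 with a higher effect in males (0.0271%) and 15 with a lower one (0.0677%), 1 against young wild-type males (0.00452%) and none against old knock-in males by edgeR, where 3689 genes had an unadjusted p under 0.05 and DESeq2 called 89. Cxcl5 was the most significant against females (difference -5.59, SE 0.93, adjusted p = 0.00394), since its log2 change was -3.44 in males and 2.15 in females. Marco averaged 52.2 CPM in IFN-γ and 155 CPM in untreated libraries of old males, and 553 CPM in IFN-γ and 60.9 CPM in untreated libraries of old females (difference -4.75, SE 0.87, adjusted p = 0.0119). These means cover a wide spread. Marco ran from 43.9 to 214.5 CPM in untreated libraries of old males and from 140 to 1573 CPM in IFN-γ libraries of old females. Ptges, an inducible prostaglandin E synthase, differed likewise (-5.07, SE 1.00, adjusted p = 0.0154), and ran from 56.3 to 1223 CPM in IFN-γ libraries of old females. Pf4, a platelet-type chemokine that macrophages also make, had 68.4 to 84.3 CPM in IFN-γ and 64.3 to 95 CPM in untreated libraries of old males, but 36.6 to 72 CPM in IFN-γ and 107 to 124 CPM in untreated libraries of old females (difference 1.27, SE 0.25, adjusted p = 0.0135). The gene called against young males was Pglyrp2, a peptidoglycan-degrading protein, at under 1 CPM in all old male libraries.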

How the data were processed

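Reads were aligned with STAR 2.7.9a to GRCm39, and DESeq2 1.40.2 was used, per the submitters' processing notes. The sources used here name neither the read counter nor the annotation. The deposited table holds raw counts per gene and, beside them, FPKM values of the authors. FPKM was used only for levels compared between genes, and counts for all tests. Symbols were matched to 52073 of 56748 gene IDs (a GRCm38 annotation, used for names only).

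From the counts, genes passing edgeR's filterByExpr (22147 genes, 99.992% of counts) were TMM-scaled and fitted with edgeR 4.0.16 in R 4.3.3 by quasi-likelihood over all 63 libraries in 16 groups (47 residual degrees of freedom), with Benjamini-Hochberg adjustment at 0.05. Groups came from the labels. Tested on simulated data for the old male comparison, the fit recovered 45 and 40 of 50 genes at log2 changes of 1 and -1, and 48 and 50 of 50 at 2 and -2. The simulated libraries were independent draws, and the changed genes had a mean above 1 CPM. The recovery therefore does not cover near-identical libraries or genes at lower levels. Depth was 96594112 to 100085436 counts per library.

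The named genes were up to 12 each way with the largest change among called genes at 1 CPM or more, the same among genes without a slope on the B cell score, up to 6 of smallest p per list, up to 4 each way per difference, and a few fixed genes. Genes without a symbol, predicted genes and V, D and J segments were left out. The 40 gene lists, the members and the rule were chosen with earlier results of these data known. Deviations from the group means correlated at 0.293, 0.207 and 0.151 between libraries with the same number in the column names (1, 2 and 5). Pairs with different numbers gave -0.209 to 0.191. IFN-γ library 4 with untreated library 5 (0.191) and IFN-γ library 3 with untreated library 1 (0.166) lay above the lowest same-number pair. The titles number untreated library 5 as 3, and its correlation with IFN-γ library 3 was -0.165. The replicate number was used as a block in an alternative fit, and whether it marks a true pairing was not tested. IFN-γ libraries 3 and 4 have no untreated library of the same number, so in that fit they add nothing to the label effect. Values with the block therefore compare libraries 1, 2 and 5 of each label, and a call lost there can also come from the fewer libraries. Alternatives covered scaling, filter, DESeq2 1.42.0, the block, covariates, summed libraries and libraries left out. Those that sum near-identical libraries or leave out sets of libraries were chosen after seeing the data. Some genes named by the rule are not reported here.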

Additional observations from a re-analysis of the deposited data

Results flagged for a closer look

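Zfp36l1 in IFN-γ library 1, at 57.85 CPM, and Tmem71 in IFN-γ library 4, at 8.285 CPM, stood apart from the other 4 IFN-γ libraries by Dixon's test. These were 2 flags among 156 tests, while chance gives about 1 in 20, and groups of 3 were not tested.

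The effect of the IFN-γ label differed between old wild-type males and old wild-type females by the interaction test for 8 named genes. The effect was higher in males, on the log2 scale, for Ksr2 (1.30), Kif19a (1.30), Pf4 (1.27) and Acat3 (1.27), and lower in males for Gnb3 (-6.95), Gzmk (-5.48), Ptges (-5.07) and Marco (-4.75). Ksr2, a scaffold of the MAP kinase pathway, averaged 9.33 CPM in IFN-γ and 8.76 CPM in untreated libraries of males, and 6.87 CPM in IFN-γ and 15.9 CPM in untreated libraries of females. The granzyme gene Gzmk averaged 0.159 CPM in IFN-γ and 0.0452 CPM in untreated libraries of males, and 1.184 CPM in IFN-γ and 0.00654 CPM in untreated libraries of females. Of the calls against females, Cxcl5, Pf4 and Pmp22 were the 3 left with the B cell score as a covariate, and none was left with near-identical libraries summed.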

How the results depend on the processing

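With the B cell score as a covariate, and then with the T and NK cell score added, the log2 change turned to -0.11 and -0.11 for Cd79a, -0.34 and -0.26 for Cd79b, -0.67 and -0.63 for Ms4a1, -0.23 and -0.25 for Pax5, -0.12 and -0.29 for Fcmr, -0.12 and -0.063 for Fam169b, -0.069 and -0.13 for Ppp1r16b, -0.99 and -1.21 for H2-Eb2, and -1.42 and -1.59 for H2-Ob, by construction for members of the score. Il7r turned to 1.12 with the first covariate. Without untreated libraries 1 and 2, Lrrc32 turned to 0.22, Plekha4 to 0.033 and Ccdc39 to 0.33. Genes called higher and lower, 202 and 341, became 2639 and 2438 with the first covariate, 2071 and 2051 with both, 23 and 13 with no filter (39107 genes), 70 and 45 with the replicate block, 725 and 573 by DESeq2, 307 and 235 with upper-quartile factors, 197 and 167 with DESeq2 size factors, 1407 and 1367 with the 8 libraries alone, 0 and 0 with libraries alike in V segments summed (3674 at an unadjusted p under 0.05) or near-identical ones summed (1199), 17 and 5 without IFN-γ libraries 1 to 3, 186 and 103 without IFN-γ libraries 4 and 5, 1 and 1 without untreated libraries 1 and 2, 0 and 0 at an adjusted p of 0.01, and 101 and 42 at a log2 change of at least 1. Leaving out single replicates gave 0 to 253 higher and 0 to 449 lower. The 21 calls against old females became 3 with the first covariate, 3 with both, 6 with the replicate block, 243 by DESeq2, 2 with libraries alike in V segments summed, 0 with near-identical ones summed, 39 without IFN-γ libraries 1 to 3, 6 without IFN-γ libraries 4 and 5, 0 without untreated libraries 1 and 2, and 2 to 355 without single replicates. The 1 call against young males became 2 with the first covariate, 8 by DESeq2, 0 under the other scalings, no filter, both covariates, the block, summed libraries and each set left out, and 0 to 1 without single replicates. The 0 calls against knock-in males became 17 with both covariates, 89 by DESeq2 and 2 without untreated libraries 1 and 2, and 0 without single replicates. The replicate block turned no direction among the 543 genes. The cause was not tested.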
